A study of Mus musculus with 10 samples.

Results

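Livers of offspring of LIRKO fathers were compared with livers of control offspring, using 7 of the 10 libraries in the series. LIRKO mice carry the floxed insulin receptor gene (IRlox/lox) with Albumin-Cre+/-, and the albumin promoter directs the recombinase to hepatocytes, so the receptor is lost from these cells and not from the rest of the body. The FL group (FL 5 to FL 7, 3 libraries) had a LIRKO father and a control mother. The control group (control 1 to control 4, 4 libraries) had parents that were both IRlox/lox; Albumin-Cre-/-, from a line bred among itself for 4 generations. Every library therefore came from a cross of floxed parents. The third group, ML (ML 8 to ML 10, 3 libraries), with a LIRKO mother and a control father, entered the estimate of spread and 1 comparison. The sources used here leave the offspring's own Cre genotype, sex, age, litter and diet unstated. No label says that each library is a separate animal, so the p-values below measure only the spread between these libraries.

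Insulin acts on the liver through the insulin receptor, IRS adaptors and the kinase AKT. This pathway holds back FOXO1-driven genes, such as Igfbp1 and the glucose output gene G6pc, and favours glycogen and fat synthesis. A separate hormone, growth hormone, sets the difference between male and female liver: its pulsed release in males acts through STAT5 to keep male-biased genes on and many female-biased genes off.

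Depth was 23192571 counts in FL 5, 31116742 in FL 6 and 30913062 in FL 7. Control 1 had 18655506 counts, and the other controls had 37292273 to 39379940. Expression is given as CPM, the library's counts rescaled to a common depth, which is not corrected for transcript length. Control 1 stood apart: on the first principal component of the 7 libraries, which held 49.6% of the variance, it scored 0.80, against -0.37 to 0.20 in the others. Short genes (exons under 1000 bp) were high in control 1, by a median log2 difference of 0.54 from their mean over all 10 libraries. They were low in the other 6 libraries compared, against a mean that includes ML 9 at 1.74. Xist, the RNA of the inactive X chromosome, had 0 to 5 counts in the 7 libraries, and the Y-linked gene Ddx3y had 1349 to 2940. Hepatocyte markers summed to 86965 to 116788 CPM in controls and 86800 to 90638 CPM in FL, and all 14 were detected.

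Insr, the insulin receptor gene (chromosome 8), was present in FL. Its level was 62.9, 82.2, 128 and 69.1 CPM in controls 1 to 4 and 77.6, 59.3 and 59.4 CPM in FL 5 to 7. The groups overlapped, and the log2 fold change of -0.39 (SE 0.34) moved to -0.13 without control 3, the highest library. A count over the whole gene does not report on the floxed part alone.

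Of 14820 genes tested, 2 passed an edgeR adjusted p of 0.05 between FL and control, which is 0.0135% of the genes. Moxd1, a monooxygenase-like gene related to dopamine beta-hydroxylase and expressed mainly in male mouse liver, rose in FL. Cyp2b9, a cytochrome P450 expressed mainly in female mouse liver, fell. Moxd1 had 0.057, 0.0509, 0.518 and 0.0448 CPM in controls 1 to 4, from 1, 2, 20 and 2 counts. In FL 5 to 7 it had 58.7, 52.7 and 159 CPM, from 1584, 1820 and 5477 counts. It was close to silent in all 4 controls and well above them in all 3 FL libraries, with a log2 fold change of 8.97 (SE 1.02, edgeR adjusted p 0.0124). Cyp2b9 had 8.03, 7.31, 5.85 and 14.6 CPM in controls 1 to 4. In FL 5 to 7 it had 0.111, 0.145 and 0.0291 CPM, which are 3, 5 and 1 counts. Its groups were also fully separate, with a log2 fold change of -6.51 (SE 0.72, edgeR adjusted p 0.0124). Reads of Cyp2b9 are uncertain where they match other Cyp2b genes.

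Both directions held under each alternative, whereas the calls did not. Moxd1 ranged from a log2 fold change of 8.28 to 10.72, and Cyp2b9 from -6.99 to -6.07. Leaving out control 1 or any 1 FL library left no gene past the threshold, with a lowest edgeR adjusted p of 0.0516 without control 1 and 0.0759, 0.0578 and 0.073 without FL 5, 6 and 7. In those 4 fits 571, 268, 570 and 412 genes had an unadjusted edgeR p under 0.05. Without control 2 or control 4 only Cyp2b9 passed.

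The promoters of both genes are shown because growth hormone acts on sex-biased liver genes through STAT5. They are RefSeq windows on GRCm38.p6, from 250 bases before to 50 bases after the gene's start, read 5′ to 3′ on the gene's strand. Capitals mark matches to the STAT5 site TTCNNNGAA, which reads the same on both strands.
Moxd1, chr10:24223267-24223566, plus strand: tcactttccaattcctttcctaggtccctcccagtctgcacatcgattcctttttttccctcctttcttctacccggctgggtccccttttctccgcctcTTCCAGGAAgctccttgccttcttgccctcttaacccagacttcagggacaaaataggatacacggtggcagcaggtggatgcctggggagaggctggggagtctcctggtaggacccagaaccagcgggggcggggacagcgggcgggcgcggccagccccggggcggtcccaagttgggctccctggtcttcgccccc
Cyp2b9, chr7:26173159-26173458, plus strand: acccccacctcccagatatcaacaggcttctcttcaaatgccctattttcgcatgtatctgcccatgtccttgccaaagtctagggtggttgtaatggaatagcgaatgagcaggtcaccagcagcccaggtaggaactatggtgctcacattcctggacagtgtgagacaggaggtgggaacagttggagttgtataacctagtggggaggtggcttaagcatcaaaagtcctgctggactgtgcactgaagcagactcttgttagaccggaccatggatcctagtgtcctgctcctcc
The Moxd1 window held 1 match, TTCCAGGAA, starting at -150, and the Cyp2b9 window held 0. A match was found in 8.30% of all 32851 windows of this length. It occurred in 2 of 27 windows of male-biased liver genes, Moxd1 included, and in 5 of 31 windows of female-biased liver genes. These matches describe the letters only.

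**Figure D1:**
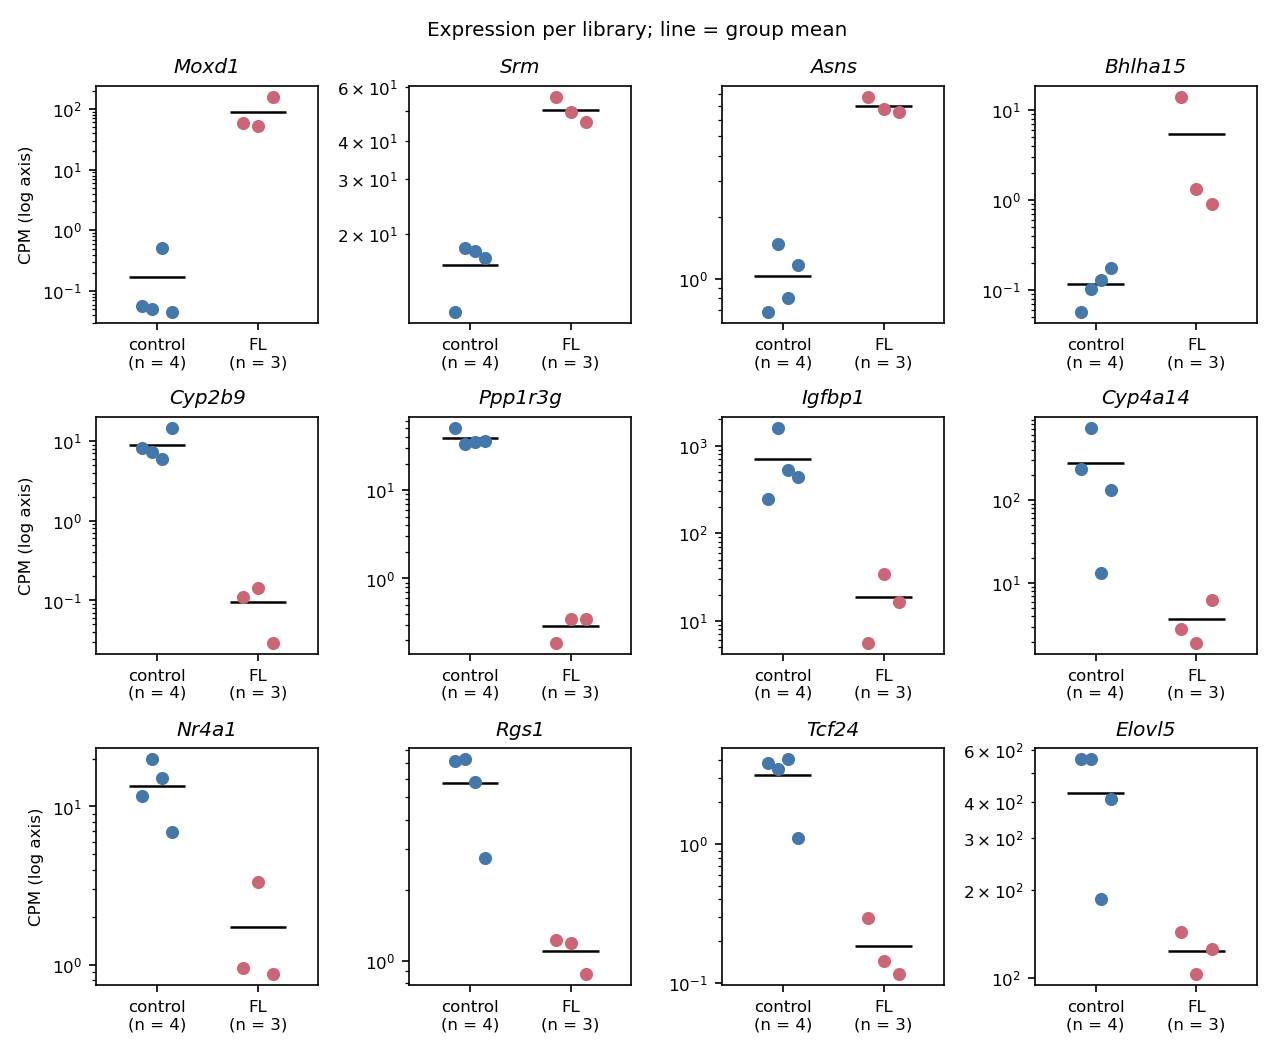
CPM of 12 genes in each of 4 control libraries (blue) and 3 FL libraries (red) on log axes that differ between panels, with a line at each group's mean. All 12 genes met a naming rule that required no overlap between the groups, and only Moxd1 and Cyp2b9 passed the edgeR test over all genes.

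The glycogen regulator Ppp1r3g came next by p. It encodes a subunit that directs protein phosphatase 1 to glycogen (chromosome 13). Controls 1 to 4 had 50.8, 33.0, 35.4 and 36.4 CPM, and FL 5 to 7 had 0.185, 0.347 and 0.349 CPM, from 5, 12 and 12 counts. Both groups were tight and far apart. In the fit of all 10 libraries the log2 fold change of -7.01 (SE 1.08) had an edgeR adjusted p of 0.124, and there ML had 0.105, 1.5 and 6.36 CPM and shared the estimate of spread. When only the 7 FL and control libraries were fitted, the edgeR adjusted p of Ppp1r3g was 0.000372, and 3 of 14479 genes passed (0.0207%), the others being Moxd1 and Cyp2b9. DESeq2 gave Ppp1r3g no adjusted p. In the glycogen list, 18 of 23 tested members lay below 0, the median log2 fold change being -0.21, or -0.13 without control 1. Ppp1r3g was the 1 member with an unadjusted edgeR p under 0.05. Over all genes tested, 55.3% lay below 0 and 3.53% had an unadjusted edgeR p under 0.05. The related targeting subunits Ppp1r3b and Ppp1r3c were at 0.36 (SE 0.42) and -0.30 (SE 0.61), and the liver glycogen synthase Gys2 at 0.15 (SE 0.40).

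Across all genes tested, 523 had an unadjusted edgeR p under 0.05 (3.53%), 241 higher in FL (1.63%) and 282 lower (1.90%). Uniform p-values would put 741 genes under 0.05. CPM did not overlap between FL and control for 846 genes (5.71%), 413 higher (2.79%) and 433 lower (2.92%). With 4 control and 3 FL libraries, chance orderings alone separate the groups for about these shares of genes. Lack of overlap by itself therefore does not mark a change. DESeq2 called 52 genes (0.351%), 15 higher (0.101%) and 37 lower (0.250%). The median log2 fold change over all genes was -0.049, with 55.3% below 0 and 44.7% above. The gene groups that follow are read against these shares. None of their members passed the edgeR test except Moxd1 and Cyp2b9, so their values are given without a claim that they changed. In bulk liver, fewer cells of a type and less RNA per cell cannot be told apart.

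**Figure D2:**
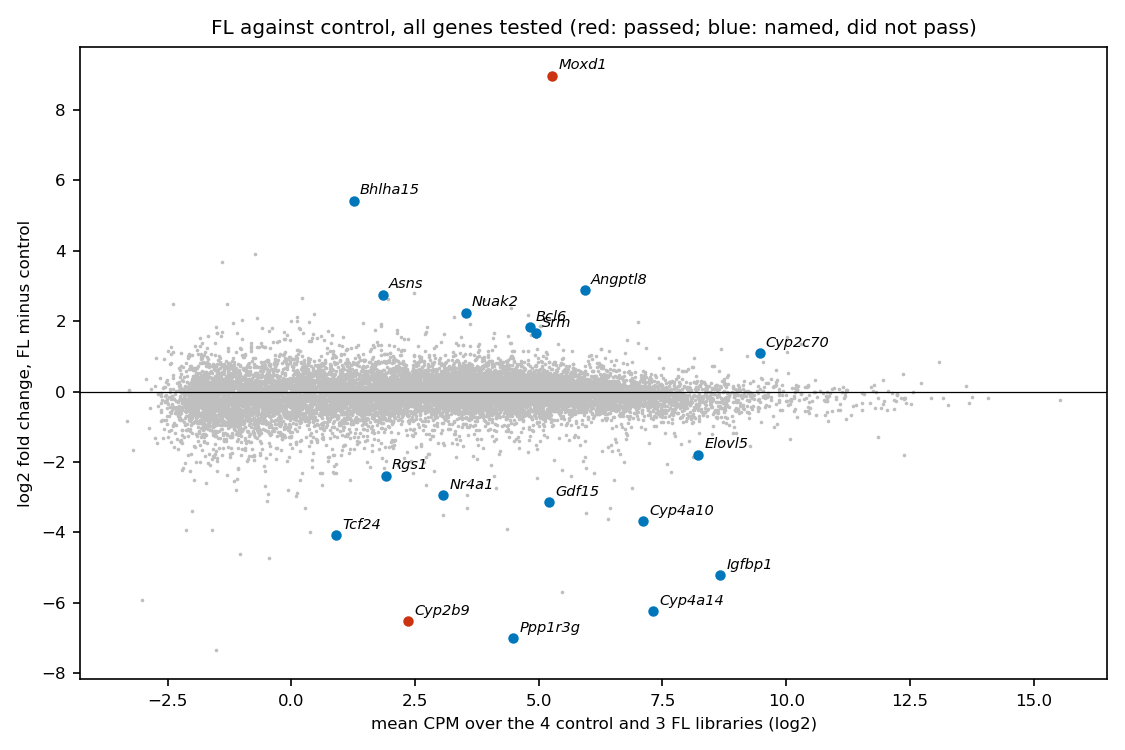
Log2 fold change of FL against control (vertical) against mean CPM on a log2 scale (horizontal) for the 14820 genes tested. Moxd1 and Cyp2b9 (red) passed the edgeR test, and the other labelled genes (blue) did not.

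Male-biased liver genes lay mostly higher in FL and female-biased ones mostly lower. Of 29 male-biased members tested, 21 lay above 0, the median log2 fold change being 0.32, or 0.48 without control 1 and 0.21 without control 2. At an unadjusted p under 0.05, 5 were higher and 2 lower. Moxd1 was 1 of the 5. The others were Ugt2b38, a glucuronosyltransferase, at 2.36 (SE 0.56), the oxysterol hydroxylase Cyp7b1 at 1.21 (SE 0.38), the selenium-binding protein Selenbp2 at 1.54 (SE 0.67) and Mup1 at 0.96 (SE 0.38), or 0.58 without FL 7. The fatty acid elongase Elovl3, also male-biased, went the other way: 169, 406, 147 and 508 CPM in controls and 51.8, 61.7 and 75.8 CPM in FL 5 to 7. The lowest log2 fold change in the male-biased list was -2.65. Of 25 female-biased members tested, 21 lay below 0 with a median of -0.59, 10 were lower at an unadjusted p under 0.05 and 0 were higher, and 8 did not overlap. Without FL 6 that median was -1.28. By library, both lists overlapped between the groups. Relative to the control mean, the female-biased median was -0.56 in control 3 and -0.37 in FL 6. The male-biased median was 0.36 in control 3 and 0.29 in FL 6.

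Within the female-biased list, Hao2, a peroxisomal hydroxy acid oxidase, had 1.25, 0.535, 0.104 and 0.336 CPM in controls 1 to 4 and 0.037, 0.029 and 0.0291 CPM in FL 5 to 7. The transporter gene Slc22a27 had 0.388 to 1.31 CPM in controls and 0 to 0.174 CPM in FL. Abcd2, a peroxisomal importer of long-chain fatty acids, had 17.1, 6.67, 4.89 and 4.73 CPM in controls and 1.48, 2.03 and 1.46 CPM in FL. All 3 genes were lower in every FL library than in any control, but Hao2 and Slc22a27 were near the detection limit in FL. Other female-biased genes had values nearer 0: the oestrogen sulfotransferase Sult1e1 was at 0.70 (SE 0.61) and Cyp2c40 at 0.30 (SE 0.82). Cyp4a14, Cyp4a10, Acot3 and Vldlr in this list are counted again under fatty acid genes.

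The growth hormone axis itself had 15 of 22 members above 0, at a median log2 fold change of 0.28, which was 0.03 without FL 5, 0.16 without control 3 and 0.51 without control 2 or FL 7. Bcl6, a male-biased repressor of female-biased genes, had 4.27, 12, 28 and 9.01 CPM in controls and 51.6, 70.1 and 22 CPM in FL, so control 3 overlapped FL 7. Stat5b, the main growth hormone effector, was at -0.54 (SE 0.27), and Igf1, its target, at 0.13 (SE 0.28). The liver-enriched factor Foxa3 was at 1.21 (SE 0.35), or 0.76 without FL 5. Of 16 major urinary proteins tested, secreted male pheromone carriers, 11 lay above 0 at a median of 0.54, or 0.22 without FL 7. Mup17 had 918, 460, 904 and 763 CPM in controls and 1865, 1267 and 2635 CPM in FL. Mup genes are near-identical copies, and how reads were divided among them is uncertain.

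**Figure D3:**
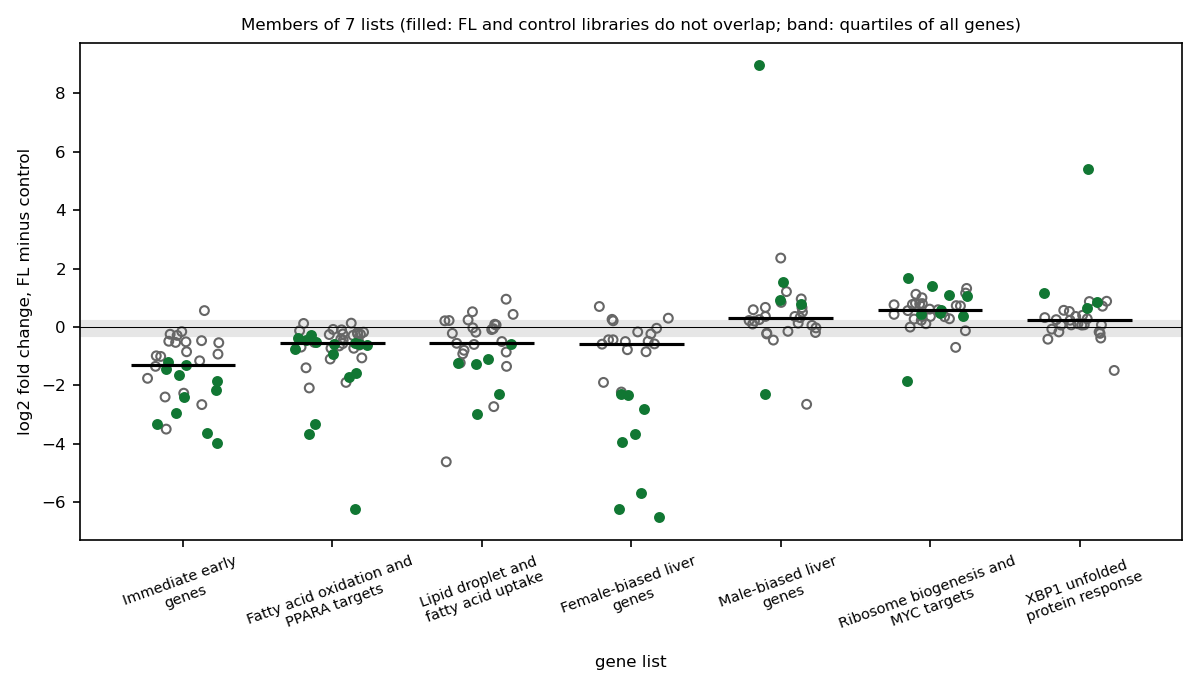
Log2 fold change of FL against control for each tested member of 7 gene lists, with a line at the list's median. Filled points are members whose FL and control libraries do not overlap, and the grey band spans the quartiles of all genes, -0.32 to 0.20.

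Srm, spermidine synthase, had 11.1, 18, 17.6 and 16.6 CPM in controls 1 to 4 and 55.7, 49.7 and 46.0 CPM in FL 5 to 7. FL was separate from the controls by a wide gap, with a log2 fold change of 1.67 (SE 0.26, edgeR adjusted p 0.124). Srm passed, at an edgeR adjusted p of 0.035, once control 1 and ML 9 were left out together. Odc1, which makes the precursor putrescine, was at 0.72 (SE 0.31), or 0.46 without FL 7, and the next enzyme Sms at -0.11 (SE 0.33). Of 25 polyamine and methionine genes tested, 15 lay below 0 and 10 above at a median of -0.21, with 2 higher and 0 lower at an unadjusted p under 0.05. That median was 0.06 without control 1, -0.062 without FL 5 and -0.33 without FL 7.

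Srm is also a target of MYC, a transcription factor of cell growth. Of 34 ribosome biogenesis and MYC target genes tested, 30 lay above 0, the median log2 fold change being 0.59, or 0.33 without FL 5. At an unadjusted p under 0.05, 10 were higher and 1 lower, and 8 and 1 did not overlap. The rRNA methyltransferase Nop2 had 6.78, 16.2, 13.4 and 14.3 CPM in controls and 48.1, 30.7 and 21.2 CPM in FL, FL 5 being the highest. Grwd1, a ribosome assembly factor, had 5.98 to 10.5 CPM in controls and 11.1 to 22.7 CPM in FL. Myc itself was the 1 lower member: 4.56, 18.1, 7.53 and 8.32 CPM in controls and 2.41, 3.62 and 1.92 CPM in FL. Cytosolic ribosomal protein genes were high in control 1, by a median of 1.09 over the control mean. Of these, 55 of 64 lay below 0 at a median of -0.25, which was 0.22 without control 1, -0.11 without FL 5 and -0.37 to -0.40 without control 3, control 4 or FL 7. The E-box CACGTG, the sequence MYC binds, reads the same on both strands and occurred in 9 of 31 RefSeq promoter windows of the ribosome biogenesis list (29%) and in 7.15% of all windows. It also occurred in 8 of 36 windows of the immediate early list (22.2%) and in 3 of 20 of the gluconeogenesis list (15%), whose medians lay below 0.

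Asns, asparagine synthetase, had 0.684, 1.48, 0.802 and 1.17 CPM in controls 1 to 4 and 7.78, 6.78 and 6.52 CPM in FL 5 to 7. The FL libraries agreed closely and did not overlap the controls, with a log2 fold change of 2.75 (SE 0.52). Asns is a target of ATF4, the factor of the amino acid response. Its RefSeq promoter window on GRCm38.p6 is shown because ATF4 acts on such promoters through an amino acid response element. Capitals mark 1 match to the letters TGATGAAAC, searched on both strands and found in 0.247% of all windows. A match occurred in 1 of 28 windows of the ATF4 target list, that of Asns itself, and in 3 of 27 windows of male-biased liver genes.
Asns, chr6:7693160-7693459, minus strand: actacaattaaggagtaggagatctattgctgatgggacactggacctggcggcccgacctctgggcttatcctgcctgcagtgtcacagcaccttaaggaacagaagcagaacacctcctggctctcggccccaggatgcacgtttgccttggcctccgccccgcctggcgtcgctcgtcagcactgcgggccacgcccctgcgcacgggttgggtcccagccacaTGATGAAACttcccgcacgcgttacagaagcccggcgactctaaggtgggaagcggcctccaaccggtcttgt
The ATF4 target list was mixed. Of 27 tested, 17 lay above 0 at a median log2 fold change of 0.11, which was -0.045 without FL 5, 0.037 without control 1 and 0.17 to 0.19 without control 2, FL 6 or FL 7, with 2 higher and 3 lower at an unadjusted p under 0.05. Trib3, a pseudokinase that inhibits AKT, had 11.9, 10.9, 8.2 and 7.91 CPM in controls and 2.78, 3.97 and 1.72 CPM in FL, with no overlap. Atf4 itself was at 0.16 (SE 0.31) and the serine enzyme Psat1 at 1.07 (SE 0.69).

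Bhlha15, a transcription factor of secretory cells that XBP1 induces, had 0.057, 0.102, 0.129 and 0.179 CPM in controls 1 to 4. FL 5 had 14.1 CPM, FL 6 had 1.33 CPM and FL 7 had 0.903 CPM, so all lay above the controls but FL 5 carried most of the difference. The log2 fold change was 5.42 (SE 0.93), or 3.15 without FL 5. In the unfolded protein response list to which it belongs, 21 of 28 members lay above 0 at a median of 0.24, or 0.11 without FL 7 and 0.38 without FL 6, with 3 higher and 0 lower at an unadjusted p under 0.05. The chaperone cofactor Dnajb9 was at 1.16 (SE 0.41), or 0.75 without FL 5, and the secreted factor Manf had 53.2 to 111 CPM in controls and 152 to 162 CPM in FL. Xbp1 was at 0.71 (SE 0.35), and the main chaperone Hspa5 at 0.53 (SE 0.40). Of the pancreatic acinar markers, which name another tissue where Bhlha15 is high, 5 of 11 had 0 counts in all 7 libraries, Prss2 and Cpb1 among them. The 11 summed to 24.6 to 118 CPM in controls and 27.8 to 46.4 CPM in FL, of which Cela1 alone gave 24.5 to 117 CPM and 27.4 to 45.8 CPM, so the sum is nearly all that of 1 gene.

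Immediate early genes, switched on within minutes by stress, hormones or feeding signals, lay lower in FL. Of 31 tested, 30 lay below 0, the median log2 fold change being -1.30, which stayed between -1.52 and -0.93 under the alternatives. At an unadjusted p under 0.05, 17 were lower and 0 higher, 11 did not overlap, and DESeq2 called 6 lower. Nr4a1, an orphan nuclear receptor, had 11.7, 20, 15.1 and 6.88 CPM in controls 1 to 4 and 0.963, 3.36 and 0.874 CPM in FL 5 to 7. Its groups did not overlap (log2 fold change -2.94, SE 0.60). Fosb, a partner in the AP-1 factor, had 0.228, 1.30, 4.14 and 3.00 CPM in controls and 0.111, 0.174 and 0.116 CPM in FL, and control 1 lay close to FL.

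The Nr4a1 promoter is shown because this gene had the lowest p of the list. Capitals mark the AP-1-like sequence TGCGTCA, searched on both strands, with 4 matches. At least 1 match was held by 2.12% of all windows and by 3 of 36 windows of the list, Nr4a1 included.
Nr4a1, chr15:101266596-101266895, plus strand: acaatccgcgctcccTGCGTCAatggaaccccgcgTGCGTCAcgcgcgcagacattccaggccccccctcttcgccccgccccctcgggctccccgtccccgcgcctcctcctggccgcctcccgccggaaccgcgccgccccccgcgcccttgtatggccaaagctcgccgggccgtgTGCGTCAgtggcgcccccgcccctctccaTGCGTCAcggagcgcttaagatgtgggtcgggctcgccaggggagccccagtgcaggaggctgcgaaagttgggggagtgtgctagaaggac
Gadd45g, a growth arrest gene, had 85.5 to 237 CPM in controls and 6.06 to 27.9 CPM in FL, and Egr1, a zinc finger factor, 47.0 to 227 CPM and 0.903 to 26.6 CPM. Both were lower in every FL library than in any control. Members chosen by value at the other end were Junb at -0.49 (SE 0.61), Dusp1 at -0.47 (SE 0.58) and Ier5 at 0.56 (SE 0.43). Controls differed widely as well: the median over members, relative to the control mean, was -0.87 in control 1 and 0.76 in control 2, and -1.21, -0.86 and -1.81 in FL 5 to 7, so FL 6 reached control 1. In ML 8 to 10 that median was -1.47, -2.01 and -0.93, about as low as in FL.

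**Figure D4:**
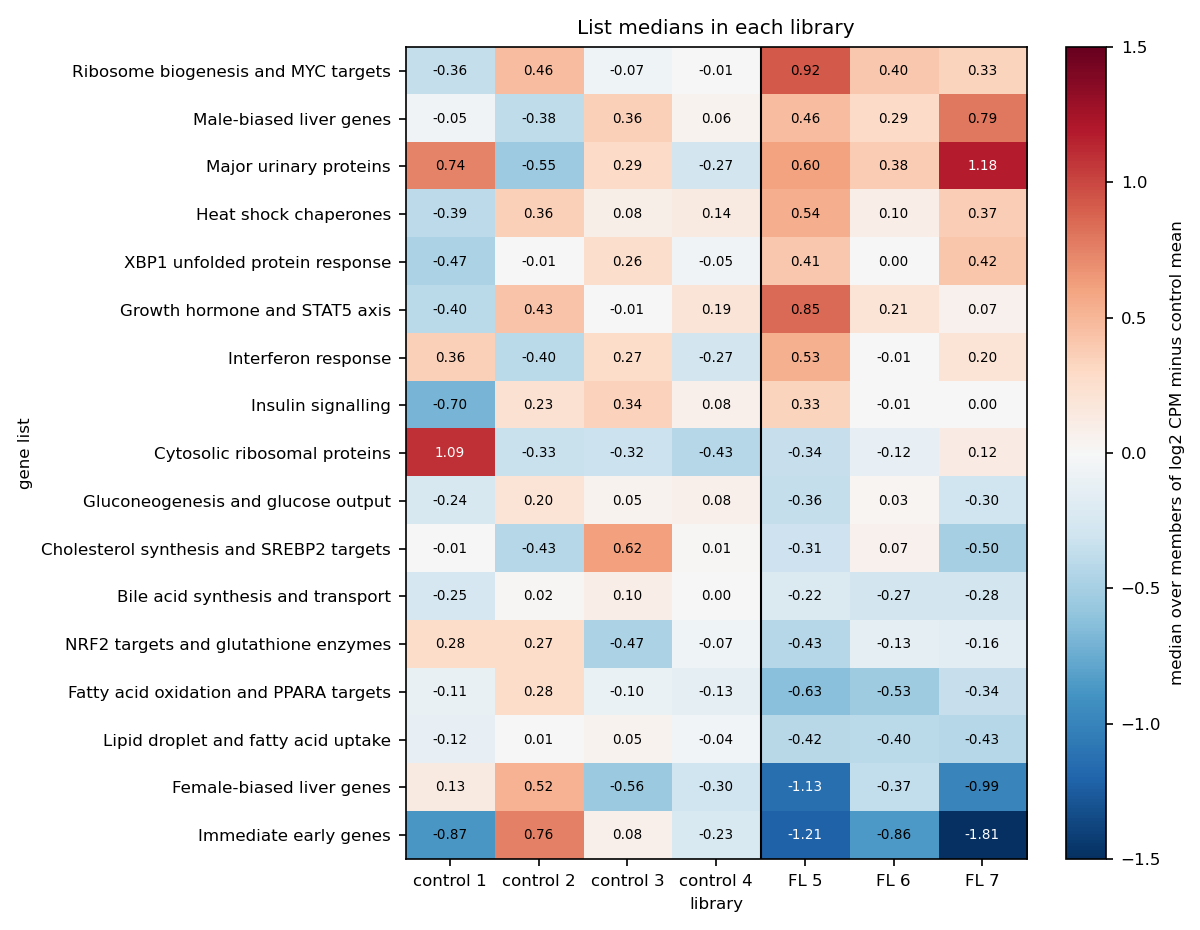
Median over the members of 17 gene lists of log2 CPM minus the control mean, in each of the 7 libraries. Fatty acid oxidation and lipid droplet genes are below every control in FL 5 to 7, whereas immediate early genes are also low in control 1, and ribosomal protein genes are high in control 1.

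Among genes that insulin restrains, Igfbp1 and the glucose output gene G6pc did not overlap between FL and control, and Pck1 did. Igfbp1, an IGF-binding protein that FOXO1 drives and insulin represses, had 245, 1596, 521 and 435 CPM in controls 1 to 4 and 5.56, 34.4 and 16.3 CPM in FL 5 to 7. The groups were far apart (log2 fold change -5.22, SE 1.19, edgeR adjusted p 0.508), with wide spread in both. Its RefSeq promoter is shown because it carries the insulin response sequence. Capitals mark CAAAANA, searched on both strands, with 2 matches that do not overlap, and 18.6% of all windows held at least 1. Of the windows of the gluconeogenesis list, which does not include Igfbp1, 2 of 20 did (10%).
Igfbp1, chr11:7197537-7197836, plus strand: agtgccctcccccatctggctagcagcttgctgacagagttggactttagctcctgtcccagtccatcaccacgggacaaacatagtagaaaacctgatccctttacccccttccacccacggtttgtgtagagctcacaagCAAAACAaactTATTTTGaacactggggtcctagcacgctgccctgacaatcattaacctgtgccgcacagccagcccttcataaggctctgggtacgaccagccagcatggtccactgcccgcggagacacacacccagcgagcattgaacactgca
G6pc, which releases free glucose, had 835, 627, 986 and 1001 CPM in controls and 196, 185 and 498 CPM in FL, without overlap (log2 fold change -1.56, SE 0.59). Its coactivator gene Ppargc1a had 8.49, 13.8, 8.10 and 7.78 CPM in controls and 3.33, 5.47 and 3.09 CPM in FL. Pck1, the entry enzyme of gluconeogenesis, overlapped, with 923 to 4904 CPM in controls and 1473 to 4039 CPM in FL. Over the gluconeogenesis list, 17 of 22 members lay below 0 at a median of -0.26. That median was -0.12 without FL 5 and -0.17 without FL 7. At an unadjusted p under 0.05, 2 members were lower and 0 higher.

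Insulin signalling components lay on both sides of 0. Of 32 tested, 19 lay above 0 at a median log2 fold change of 0.013, which ran from -0.15 without control 1 to 0.16 without control 3 and moved over 1.5 times without any 1 of the 7 libraries. Akt1 had 24.2, 40.2, 50.8 and 42.4 CPM in controls and 71.1, 64.9 and 67.7 CPM in FL, with all FL libraries above the controls. Irs2, an insulin receptor substrate that insulin represses, had 0.912, 12.8, 15.5 and 9.37 CPM in controls and 5.44, 2.75 and 4.05 CPM in FL, and control 1 was lowest of all. Srebf1, an insulin-induced factor of fat synthesis, was at 0.19 (SE 0.38). Angptl8, an insulin-induced inhibitor of lipoprotein lipase, had 29.3, 9.65, 13.7 and 12.2 CPM in controls and 185, 149 and 26.6 CPM in FL, so FL 7 lay within the controls (log2 fold change 2.89, SE 0.73).

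Among other secreted liver factors, Gdf15, a stress cytokine, had 22.5, 90.0, 97.3 and 28 CPM in controls and 3.59, 13.3 and 3.12 CPM in FL, without overlap. Inhbe, an activin subunit, had 18.3 to 46.8 CPM in controls and 49.7 to 84.4 CPM in FL. The activin antagonist Fst had 11.2, 3.72, 5.77 and 2.26 CPM in controls and 2.26, 1.27 and 2.24 CPM in FL. Fgf21, the fasting hepatokine, was at -1.10 (SE 0.74). In all, 4 of 28 such genes were higher and 4 lower at an unadjusted p under 0.05.

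Fatty acid oxidation genes lay lower in FL as a group. PPARA is the nuclear receptor that turns on fatty acid oxidation and ketone production in fasting, and 40 of 42 genes of this list lay below 0, at a median log2 fold change of -0.56. The median stayed between -0.61 and -0.45 under the alternatives. Relative to the control mean, the median over members was -0.13 to 0.28 in controls and -0.63 to -0.34 in FL, without overlap. Of all 49 lists, the lipid droplet, cytochrome P450 and adipocyte lists were the only others whose medians did not overlap. As for single genes, some lists separate by chance, so this by itself does not mark a change. At an unadjusted p under 0.05, 10 were lower and 0 higher, and 15 did not overlap. The 2 members above 0 were Ppara itself at 0.12 (SE 0.40) and the acyl-CoA synthetase Acsl1 at 0.13 (SE 0.43).

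The omega-hydroxylase Cyp4a14, a strong PPARA target, had 232, 730, 13.1 and 131 CPM in controls 1 to 4 and 2.81, 1.91 and 6.32 CPM in FL 5 to 7. Control 3 was the lowest control and still above FL (log2 fold change -6.23, SE 1.23, edgeR adjusted p 0.366). Its neighbour Cyp4a10, 22121 bases away on chromosome 4, had 137, 574, 41.5 and 163 CPM in controls and 11.9, 15.1 and 26.7 CPM in FL. Reads of these related genes may be shared. Vnn1, a pantetheinase, had 50.8, 49.9, 21.9 and 33.6 CPM in controls and 13.6, 9.50 and 12.3 CPM in FL, again without overlap. Pdk4, which blocks pyruvate oxidation, was at -3.31 (SE 0.81), or -2.11 without control 2, where it had 51.3 CPM. The transport step gene Cpt1a was at -0.10 (SE 0.50) and the thiolase Acaa2 at -0.085 (SE 0.28).

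Genes of fatty acid uptake and lipid droplets had 21 of 29 members below 0 at a median log2 fold change of -0.56, or -0.13 without control 2. At an unadjusted p under 0.05, 6 were lower and 0 higher. Cd36, a fatty acid transporter, had 57.4, 46.4, 31.3 and 57.4 CPM in controls and 15.5, 18.1 and 25.7 CPM in FL. The adipogenic receptor Pparg had 9.17, 7.31, 9.76 and 10.9 CPM in controls and 4.04, 4.95 and 4.08 CPM in FL. Vldlr, a lipoprotein receptor, had 0.983 to 3.65 CPM in controls and 0.291 to 0.704 CPM in FL. None of the 3 overlapped between groups.

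Most of the adipocyte markers tested lay lower in FL beside that list. Of the 6 tested, 4 lay below 0, all at an unadjusted p under 0.05, and 0 were higher at that level, with a median log2 fold change of -1.22. The median over these markers, relative to the control mean, was -0.41 to 0.61 in controls and -1.40 to -0.91 in FL, without overlap, and the fold change stayed at -1.07 without control 3. The 4 were Adipoq, Cfd, Fabp4 and Pparg, and the last 3 are also members of the lipid droplet list. The 2 others tested, Lipe and Cidec, lay above 0. Markers of mature fat cells were found mainly in control 3. Adipoq, the adipocyte hormone adiponectin, had 94 counts in control 3, 1 in control 2 and 0 in the other 5 libraries, and Ucp1, the brown fat uncoupling protein, had 296 counts in control 3, 1 in control 2 and 0 elsewhere. Lep and Plin1 had counts in control 3 only. Over the 10 markers, summed CPM ran from 37.4 to 77.5 in controls, with control 3 highest, and from 30.6 to 40.1 in FL. The part of the shared markers in the lipid droplet values was not tested. Without control 3 the lipid droplet median was -0.64, and Cd36, Pparg and Vldlr were at -1.44, -1.07 and -2.56.

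Lipogenesis genes split. Of 30 tested, 19 lay below 0 at a median log2 fold change of -0.16, or 0.028 without control 4, -0.07 without FL 7 and -0.24 without control 3, with 7 lower and 0 higher at an unadjusted p under 0.05. The 7 were Pnpla3, Elovl3, Insig2, Scd1, Elovl5, Me1 and Acss2. Elovl5, an elongase of polyunsaturated fatty acids, had 558, 560, 186 and 409 CPM in controls and 143, 103 and 126 CPM in FL. Me1, malic enzyme, had 106 to 304 CPM in controls and 55.2 to 89.9 CPM in FL. Insig2, which retains the SREBP complex in the endoplasmic reticulum, had 232, 537, 136 and 242 CPM in controls and 53.4, 50.8 and 103 CPM in FL. Scd1, the main desaturase, had 12470, 9820, 2611 and 5893 CPM in controls and 2148, 1747 and 2745 CPM in FL, where control 3 fell within FL. The core synthesis genes Fasn and Acly were at -0.26 (SE 0.52) and -0.078 (SE 0.38). Of 25 cholesterol synthesis genes, 19 lay below 0 at a median of -0.35, or -0.14 without control 3, with 0 at an unadjusted p under 0.05.

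**Figure D5:**
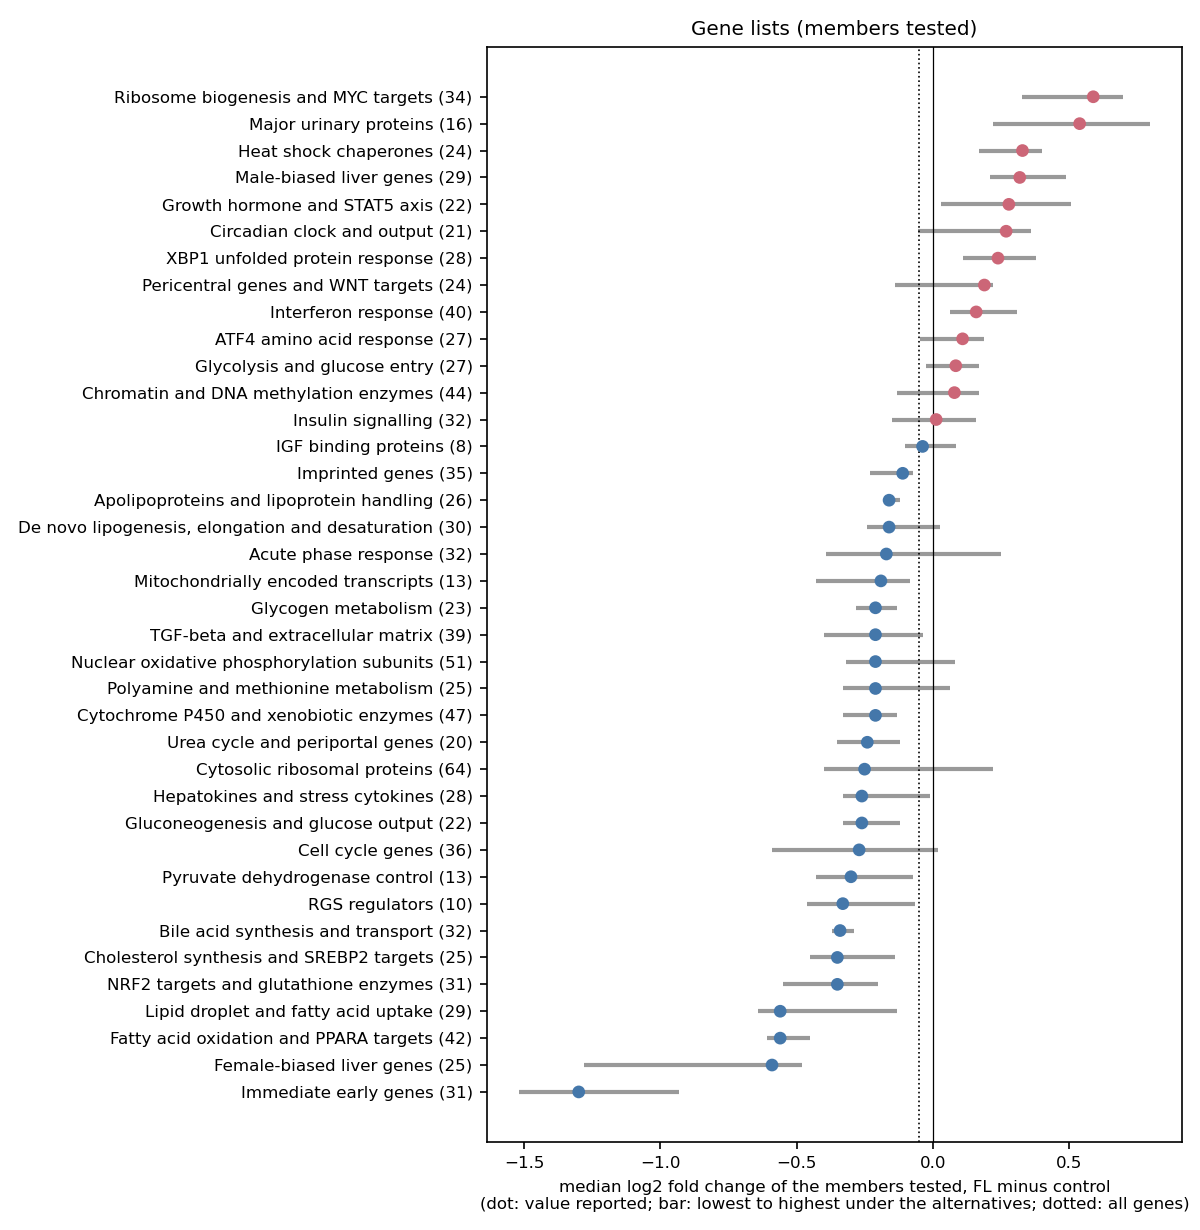
Median log2 fold change of FL against control over the tested members of each pathway list (dots), with bars from the lowest to the highest median under the alternatives and a dotted line at the median of all genes, -0.049. The bars of immediate early, fatty acid oxidation and ribosome biogenesis genes stay on 1 side of 0, and those of ribosomal proteins, oxidative phosphorylation and clock genes cross it.

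Bile acid genes lay lower as a group, with 28 of 32 below 0 at a median log2 fold change of -0.34. At an unadjusted p under 0.05, 2 were higher and 4 lower. The higher pair was Cyp2c70, which makes the muricholic acids of mice, with 412, 551, 430 and 504 CPM in controls and 960, 922 and 1158 CPM in FL, and Cyp7b1, with 153, 200, 449 and 252 CPM against 725, 422 and 677 CPM. Cyp2c70 did not overlap, and Cyp7b1 did. Among the 4 lower genes were the 12-alpha-hydroxylase Cyp8b1, with 204 to 352 CPM in controls and 52.5 to 233 CPM in FL, and the uptake carrier Slco1a4, with 33.3 to 54.6 CPM and 18 to 26.2 CPM. Cyp7a1, the rate-limiting enzyme of bile acid synthesis, overlapped, at 0.80 (SE 0.67).

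Of 47 cytochrome P450 and xenobiotic genes, 35 lay below 0 at a median log2 fold change of -0.21, or -0.13 without FL 5 and -0.33 without FL 6, with 7 lower and 0 higher at an unadjusted p under 0.05. Cyp2b10, the marker of the nuclear receptor CAR, had 3.08, 289, 7.09 and 5.76 CPM in controls and 0.407, 2.26 and 1.75 CPM in FL. Control 2 set its log2 fold change of -5.68 (SE 1.77), which was -1.85 without that library. Control 2 was high in the same way for the cell cycle inhibitor Cdkn1a, with 123 CPM against 1.14 to 6.93 in the other controls, and its median for acute phase genes was 1.07 above the control mean. Of 31 NRF2 and glutathione genes, 26 lay below 0 at a median of -0.35, or -0.20 without control 1 (20 of 31) and -0.55 without control 3.

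Clock genes had a median log2 fold change of 0.27, which was -0.054 without FL 5 and 0.10 without control 1. Per2, a repressor arm gene of the clock, had 15.7, 10.9, 22 and 19.1 CPM in controls and 38.9, 47.0 and 27.3 CPM in FL, without overlap, and its activator Arntl was at -0.92 (SE 0.78). Of 40 interferon response genes, 30 lay above 0 at a median of 0.16. That median was 0.065 without control 2 (22 of 40), 0.085 without control 4 and 0.095 without FL 5, and 0.27, 0.31 and 0.24 without control 1, control 3 and FL 7. The interferon regulatory factor Irf1 had 14.8, 13.4, 9.03 and 14.3 CPM in controls and 33.7, 41.0 and 25.2 CPM in FL. Of 36 cell cycle genes, 26 lay below 0, and the median of -0.27 became 0.018 without control 3, -0.12 without FL 5, -0.47 without control 2 and -0.59 without FL 7. Ccnd1, cyclin D1, had 5.01, 15.2, 16 and 7.42 CPM in controls and 74.1, 22.2 and 51.9 CPM in FL, again without overlap.

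Imprinted genes and chromatin enzymes were examined because the groups differ in a parent. Imprinted genes, expressed from 1 parental copy, had 23 of 35 tested members below 0 at a median log2 fold change of -0.11, or -0.23 without FL 5, with 2 higher and 1 lower at an unadjusted p under 0.05. Phlda2, a maternally expressed growth restraint gene, had 0.0224 to 0.114 CPM in controls and 0.203 to 0.495 CPM in FL, levels close to the detection limit. Meg3 was at 2.00 (SE 0.88), or 0.45 without FL 6. Igf2 was at -0.064 (SE 0.48) and Grb10 at 0.77 (SE 0.41). Of 44 chromatin and DNA methylation enzymes, 26 lay above 0 at a median of 0.08, or -0.13 without FL 5, -0.081 without control 1 and 0.17 without FL 7, with 0 at an unadjusted p under 0.05.

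Further genes with low p fell outside these groups. Rgs1, which switches off G protein signalling, had 7.18, 7.31, 5.82 and 2.74 CPM in controls and 1.22, 1.19 and 0.874 CPM in FL (log2 fold change -2.39, SE 0.42, edgeR adjusted p 0.275). Tcf24, a basic helix-loop-helix factor (chromosome 1), had 3.82, 3.46, 4.11 and 1.10 CPM in controls and 0.296, 0.145 and 0.116 CPM in FL. The adjacent Ppp1r42, which lies 691 bases away on the same strand and was picked for its position after its values were seen, had 3.42, 0.535, 0.699 and 0.314 CPM in controls and 0.037, 0.0579 and 0.0291 CPM in FL. Slc17a8, a vesicular glutamate transporter, had 26.6, 27.4, 28.4 and 22.3 CPM in controls and 4.30, 8.22 and 10.4 CPM in FL. Nuak2, a kinase related to AMPK, had 2.34, 4.94, 5.67 and 4.66 CPM in controls and 28.4, 24.1 and 10.4 CPM in FL. No FL library of these 5 genes overlapped a control, which was a condition of naming all but Ppp1r42. The ERK phosphatase Dusp7, the F-box protein Skp2 and the transglutaminase Tgm1 had log2 fold changes of 1.32 (SE 0.34), 1.54 (SE 0.40) and 1.51 (SE 0.39).

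Among the genes with the largest differences in mean CPM at an unadjusted p under 0.05 were abundant liver transcripts, chosen after their values were seen. Scd1, Tdo2, Slc25a47 and Igfbp1 were lower in FL, and Saa4, Cyp7b1, Cyp2c70, Selenbp2 and Mup17 higher. Tdo2, which opens the tryptophan ring, had 3180, 2475, 1886 and 1538 CPM in controls and 969, 1369 and 1437 CPM in FL. Slc25a47, a liver mitochondrial carrier, had 2164, 1848, 1087 and 758 CPM in controls and 614, 544 and 582 CPM in FL. Both were lower in all FL libraries than in any control. Selenbp2 had 106, 247, 1223 and 707 CPM in controls and 1466, 2192 and 1308 CPM in FL, where the control spread was wide.

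Markers of other liver cells gave no separation for most types. Kupffer cell markers summed to 429 to 785 CPM in controls and 465 to 657 CPM in FL, sinusoidal endothelial markers to 320 to 461 CPM and 330 to 364 CPM, and cholangiocyte markers to 38.3 to 74.0 CPM and 43.7 to 84.6 CPM. Stellate cell and fibroblast markers were the 1 list whose sums did not overlap. They were 362 to 438 CPM in controls and 283 to 350 CPM in FL. Of this, Dcn gave 95.6 to 179 CPM in controls and 88.7 to 91.9 CPM in FL, and Ecm1 57.4 to 125 CPM and 59.4 to 119 CPM. The median over members, relative to the control mean, overlapped, at -0.40 to 0.24 in controls and -0.34 to 0.20 in FL. Of 16 tested, 5 lay above 0 and 11 below, with 0 at an unadjusted p under 0.05. The part of these markers in other results was not tested. Nuclear oxidative phosphorylation subunits had 50 of 51 members below 0 at a median log2 fold change of -0.21, which was 0.076 without control 1, -0.092 without FL 5 and -0.32 without control 3.

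To ask whether the FL values also differ from those of offspring of LIRKO mothers, FL and ML were tested in the same fit. Cyp2b9 was the 1 gene that passed (0.00675% of the genes), with 11.4, 4.37 and 17.3 CPM in ML 8 to 10 and a log2 fold change of FL minus ML of -6.81 (SE 0.74, edgeR adjusted p 0.0144). Moxd1 had 0.552, 0.0652 and 0.031 CPM in ML and a log2 difference of 8.52 (SE 1.14, edgeR adjusted p 0.0644). For both genes ML lay in or near the control range. ML 8 also had 205 counts of Xist, against 0 in ML 9 and ML 10, and its part in the values of these sex-biased genes was not tested. Asns, Bhlha15 and Cyp4a14 had differences of 2.69 (SE 0.58), 5.06 (SE 1.04) and -6.24 (SE 1.25) between FL and ML, each at an edgeR adjusted p of 0.238. Igfbp1 had 7.04, 20.5 and 160 CPM in ML, a log2 difference of -1.74 (SE 1.04) between FL and ML. Ppp1r3g was at -3.15 (SE 0.97) in that comparison. Nr4a1, Gdf15 and Elovl5, lower in FL than in control, were at 1.06 (SE 0.61), 0.43 (SE 0.68) and -0.051 (SE 0.41) there. Immediate early genes were about as low in ML as in FL. The median of fatty acid oxidation genes, relative to the control mean, was -0.13, 0.44 and 0.60 in ML 8 to 10, above FL. The comparison of FL with ML rested in part on ML 9, a library with 4.69% of its counts on 18S rRNA. With all libraries 2964 genes had an unadjusted edgeR p under 0.05, and 733 did without ML 9. Cyp2b9 passed without ML 9 or ML 10, and no gene passed without ML 8 or any 1 FL library, where 882 to 3576 genes had an unadjusted p under 0.05.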

How the data were processed

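Polyadenylated liver RNA was sequenced as directional paired-end libraries, per the labels' protocols. The authors deposited a table of raw counts per gene, made with STAR and featureCounts on GRCm38, per the submitters' processing notes. No source used here gives versions, annotation release or strand setting, so overlapping, antisense and near-identical genes are uncertain. Of 46071 rows, 45229 matched GENCODE M21, and the other 842 held at most 0.0659% of a library.

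Groups came from the sample titles. edgeR 4.0.16 (R 4.3.3) used filterByExpr with a minimum count of 10, TMM factors and a robust quasi-likelihood F test, two-sided, on all 10 libraries with 1 coefficient per group. It tested 14820 genes with 7 residual degrees of freedom and a common biological coefficient of variation of 0.448. Benjamini-Hochberg adjustment ran over all genes, with a threshold of 0.05. SE is the log2 fold change divided by the square root of F. Gene lists are described by counts and medians, without a set test. The procedure was tested on simulated counts.

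Named were genes that passed, the lowest-p genes without overlap at a mean CPM of at least 1, DESeq2 calls of that kind, up to 3 lowest-p members of each list at an unadjusted p under 0.05, and Insr. Other named members were chosen after their values were seen. Members and lists were chosen with earlier results of these data known. Alternatives were DESeq2 1.42.0, limma-voom (limma 3.58.1), other scaling factors, filters and thresholds, removal of each library's dependence on exon length and GC, a fit of the compared groups only, and leaving out libraries. Promoter windows are from RefSeq on GRCm38.p6. Values of a few named genes are not reported here.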

Additional observations from a re-analysis of the deposited data

Results flagged for a closer look

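The gap between a single control library and the other 3 was measured on log CPM. It passed Dixon's critical value for 4 samples for 4 of the 86 named genes. Chance gives about 1 in 20, or 4.3 of 86. Moxd1 was highest in control 3, at 0.518 CPM, and that library remained far below FL. Srm was lowest in control 1, at 11.1 CPM. Tcf24 was lowest in control 4, at 1.10 CPM, and Ppargc1a highest in control 2, at 13.8 CPM. Each of the 4 controls was picked once on this scale. On CPM itself other genes stand out. Control 2 had 289 CPM of Cyp2b10 against 3.08 to 7.09 in the other controls, and 123 CPM of Cdkn1a against 1.14 to 6.93.

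Cyp2b9 differed between the offspring of LIRKO fathers and those of LIRKO mothers, with a log2 fold change of FL minus ML of -6.81 (edgeR adjusted p 0.0144). The control libraries did not enter that difference except through the shared estimate of spread.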

How the results depend on the processing

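The count of 2 genes past the threshold between FL and control became 52 with DESeq2, 1 with limma-voom (Moxd1) and 1 with no filter on low counts (Cyp2b9), and ran from 0 to 2 with 1 library left out. Fitting only the groups compared gave 3. Between FL and ML, the count of 1 became 248 with DESeq2, 2 with no filter, 2 with the length and GC trend removed, 2 at an adjusted p under 0.10 and 0 with only those groups fitted, and ran from 0 to 1 with 1 library left out. The cause was not tested. The 523 genes at an unadjusted p under 0.05 became 268 without FL 5 and 1036 without control 1 and ML 9. Of 1366 log2 fold changes of the 86 named genes under the alternatives, 1323 kept their direction and side of the threshold, 31 newly passed, 12 no longer passed and 0 reversed. List medians changed sign under at least 1 alternative for 18 of 49 lists. No paired analysis was possible because the groups share no replicate numbers. Low counts limit Moxd1 in controls and Cyp2b9, Ppp1r3g, Hao2 and Slc22a27 in FL.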
